A study of Mus musculus with 3 samples.

Results

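MHC class II genes were examined in CD4+ T cells sorted from the kidney and spleen of lupus-prone MRL/lpr mice. The genes are H2-Aa, H2-Ab1, H2-Eb1, Cd74 and Ciita, 5 of the 32285 gene rows of each deposited matrix, taken by symbol, and all 5 had a row in both organs. All mice carried loxP-flanked Ezh2 on both alleles. Ezh2 encodes the histone methyltransferase of Polycomb repressive complex 2. WT denotes Ezh2fl/fl mice without Cre and KO denotes littermates that also carried Cre-ERT2, a Cre activated by tamoxifen, under the Cd4 promoter (iCD4-Cre Ezh2fl/fl). That Cre strain had been backcrossed to MRL/lpr for 6 generations. Mice of both genotypes were given tamoxifen by gavage at 300 mg/kg, every other week from 10 or 14 weeks of age until 24 weeks, and the start used for each mouse is not given. Under the Cd4 promoter this Cre can act in any cell that uses the promoter while tamoxifen is present. The deletion is therefore not limited to a single CD4+ state.

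MHC class II molecules hold peptides taken up from outside a cell and show them to CD4+ T cells. H2-Aa and H2-Ab1 encode the alpha and beta chains of I-A, and H2-Eb1 encodes the beta chain of I-E. Cd74 encodes the invariant chain, which fills the groove until peptide is loaded, and Ciita encodes the transactivator that class II promoters depend on. B cells, dendritic cells and macrophages express the set at high levels, while mouse T cells are generally described as making little class II. The class II genes of MRL/lpr mice are of the H2-k haplotype, and the reference genome is of the H2-b haplotype. How well reads of these polymorphic genes matched the reference was not tested. H2-Ea, the alpha chain partner of H2-Eb1, has no row in the matrices and was not analysed here.

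H2-Aa (17:34282744-34287823), H2-Ab1 (17:34263227-34269418) and H2-Eb1 (17:34305867-34316674) lie near each other on chromosome 17 (RefSeq genes of GRCm38.p6). Of the 5 genes, 2 have a promoter in the RefSeq table for that build, and both are shown because H2-Aa and H2-Eb1 behaved differently in the results below. The windows run from 250 bases before to 50 bases after the start, on the strand of the gene, at chr17:34287774-34288073 (minus strand) for H2-Aa and chr17:34305617-34305916 (plus strand) for H2-Eb1. Capitals mark the Y box letters CTGATTGG and, 10 to 30 bases ahead of them, the X2 box core TGANG. The X2 and Y boxes are the sites known from class II promoters to be bound by CREB and NF-Y.
H2-Aa: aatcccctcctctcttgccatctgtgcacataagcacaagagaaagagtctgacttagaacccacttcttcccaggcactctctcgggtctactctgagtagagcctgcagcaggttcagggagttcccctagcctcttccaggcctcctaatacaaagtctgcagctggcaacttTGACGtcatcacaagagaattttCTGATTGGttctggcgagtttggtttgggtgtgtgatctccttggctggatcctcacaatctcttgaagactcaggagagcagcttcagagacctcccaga
H2-Eb1: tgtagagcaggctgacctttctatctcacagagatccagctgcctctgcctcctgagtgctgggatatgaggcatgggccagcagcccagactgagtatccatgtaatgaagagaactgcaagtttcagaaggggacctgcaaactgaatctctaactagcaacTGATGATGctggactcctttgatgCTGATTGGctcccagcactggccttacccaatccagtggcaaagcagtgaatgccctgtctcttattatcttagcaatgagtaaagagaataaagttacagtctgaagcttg
In the H2-Aa window TGACG begins 74 bases and CTGATTGG 51 bases before the start. In the H2-Eb1 window TGATG occurs in the marked range as 2 overlapping copies, at 86 and 83 bases before the start. CTGATTGG begins 62 bases before the start. A further TGATG directly ahead of CTGATTGG begins less than 10 bases before it and is not in capitals. Searched on both strands, CTGATTGG was present in 4.10% and TGANG in 89.4% of the 32851 promoters of the table, and the arrangement of both was present in 0.353%. The match describes the letters of the reference and not a site in use in these cells.

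Cells were marked with an antibody tag per mouse and organ, pooled, and read by single-cell sequencing of transcript 5′ ends as UMI counts (unique molecular identifiers, each counting a captured transcript). The cells of 2 KO and 3 WT mice (KO1, KO2, WT1, WT2, WT3) could be told apart, each mouse with both organs. After filters of at least 200 genes and under 10% mitochondrial UMIs, 4979 kidney and 8358 spleen cells were kept, with 219 to 1629 cells and 900068 to 6829477 UMIs per mouse in kidney and 922 to 2386 cells and 4105534 to 10102765 UMIs in spleen. Median depth was 3187 to 3520 UMIs per cell in kidney and 3210.5 to 3644.5 in spleen. No cell barcode was shared between these blocks. Levels are given as CPM, the UMIs of a gene scaled to a common total of all gene UMIs in the summed cells. Ezh2, the targeted gene, stood at 70.9 and 56.7 CPM in the kidney cells of KO1 and KO2 and at 83.0, 154 and 136 in those of WT1, WT2 and WT3. In spleen it stood at 52.3 and 56.1 in the KO mice and at 77.9, 179 and 155 in the WT mice. Both KO mice were below every WT mouse in each organ, and WT1 lay nearest to them. Most kept cells held a transcript of a T cell receptor or CD3 gene, and 34 kidney and 160 spleen cells held a transcript of a B cell-defining gene (such as Cd79a, Cd79b, Ms4a1, Pax5 or Ebf1).

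The class II signal of the sorted cells lay mainly in a few droplets, most of which also held B cell or myeloid transcripts. Cells with at least 10 UMIs of H2-Aa, H2-Ab1 and H2-Eb1 together numbered 31 in kidney (0.623% of cells) and 44 in spleen (0.526%). They held 84.5% of the class II UMIs and 67.8% of the Cd74 UMIs of kidney, and 60.8% and 28.6% of those of spleen. Of the 31 kidney cells, 9 held a B cell-defining transcript, 10 held a myeloid-defining transcript such as Lyz2, Csf1r or Siglech, and 3 of these held both. A further 10 were T cells with no such transcript, and 5 had none of the defining transcripts. Of the 44 spleen cells, 16 were B cell-marked, 12 myeloid-marked, 2 of them both, and 17 were T cells without either. The highest count in a single cell was 497 class II UMIs in kidney and 523 in spleen.

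**Figure D1:**
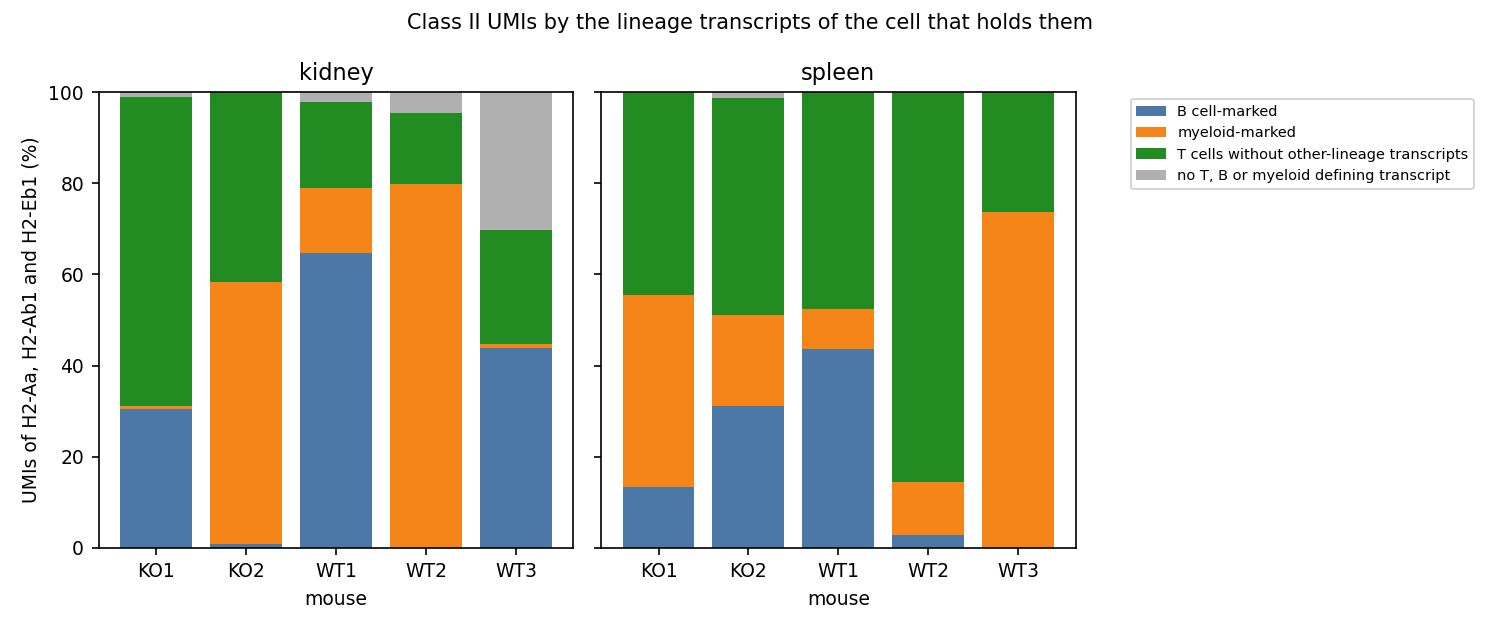
Share of the summed H2-Aa, H2-Ab1 and H2-Eb1 UMIs of each mouse (vertical axis, percent) held by B cell-marked, myeloid-marked, unmarked T cells and cells with no defining transcript, with kidney on the left and spleen on the right. T cells without B cell or myeloid transcripts held 15.4% of the class II UMIs in kidney WT2 and 85.5% in spleen WT2, the extremes of the 10 bars.

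Cells of other lineages were few but rich in these genes. In kidney the 34 B cell-marked cells carried 3466 CPM of the 3 class II genes and the 57 myeloid-marked cells not counted among them 2751, against 40.9 in the 4838 remaining T cells. In spleen the 160 B cell-marked cells carried 849, the 80 myeloid-marked cells 2490 and the 8082 T cells 54.0. Levels were therefore given for all kept cells, as sorted, and for T cells that held a T cell-defining transcript and no B cell- or myeloid-defining transcript, called unmarked T cells here. Fewer cells of a type and less RNA per cell cannot be told apart in a sum.

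Igkc and Cd79a were set beside class II in single cells to show B cell RNA. A cell was called class II-positive with at least 1 UMI of H2-Aa, H2-Ab1 or H2-Eb1. Cd79a, a signalling chain of the B cell receptor, was found in 9 of 322 positive and 5 of 4657 negative kidney cells (2.80% and 0.107%), and in 17 of 808 positive and 11 of 7550 negative spleen cells (2.10% and 0.146%). Igkc, the kappa light chain constant gene, was found far more widely, in 39.8% of positive and 28.9% of negative kidney cells and in 39.0% and 27.2% of spleen cells. The Igkc share was clearly higher with class II in some mice only, with no test made. In spleen it was 30.8% of positive against 11.0% of negative cells in KO1, 38.4% against 18.5% in KO2 and 29.9% against 17.7% in WT1, but 53.8% against 52.9% in WT2 and 43.5% against 43.1% in WT3. In kidney it was 33.3% against 14.2% in KO1, 19.0% against 14.1% in KO2 and 33.3% against 12.5% in WT1, while WT2 had 51.8% against 52.1% and WT3 39.5% against 36.2%. No Igkc, B cell-defining or myeloid-defining UMI was found in 175 of the 322 positive kidney cells and 463 of the 808 positive spleen cells. Positive cells were also deeper, with a median of 4330.5 against 3351 UMIs in kidney and 3885 against 3340.5 in spleen.

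H2-Aa, the I-A alpha chain, was higher in the spleen cells of both KO mice than in those of any WT mouse. Over all kept spleen cells it stood at 48.1 and 94.3 CPM in KO1 and KO2 and at 26.7, 14.4 and 29.8 in WT1, WT2 and WT3. H2-Ab1, the I-A beta chain, followed the same order, with 26.7 and 45.6 in the KO mice and 17.5, 7.31 and 20.2 in the WT mice. Neither gene overlapped between genotypes, as was so in this direction for 19.8% of the 11698 genes tested. H2-Eb1 stood at 41.5 and 77.8 in the KO mice and 31.2, 48.7 and 48.4 in the WT mice, with KO1 inside the WT range. Cd74 stood at 378 and 628 in the KO mice and 494, 136 and 142 in the WT mice, where WT1 exceeded KO1.

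None of the 4 genes that passed the filter on low counts passed the test for KO against WT in spleen, by edgeR's quasi-likelihood test adjusted over 11698 genes at 0.05, which called 0.239% of genes. The log2 fold change was 1.62 ± 0.38 (SE) for H2-Aa (edgeR adjusted p = 0.128), 1.28 ± 0.43 for H2-Ab1 (0.220), 0.52 ± 0.33 for H2-Eb1 (0.480) and 1.04 ± 0.58 for Cd74 (0.422), against a median of -0.01 over all genes. H2-Aa did pass under DESeq2 (adjusted p = 0.00373), where 697 of 11698 genes were called. It also passed without the filter on low counts (edgeR adjusted p = 0.0336), where 340 of 20207 genes were called. Without WT1 it passed as well (edgeR adjusted p = 0.0273), where 2254 of 11351 genes were called. Cd74 passed only where WT1 was left out, with a log2 fold change of 1.86 and an edgeR adjusted p of 0.00244. In unmarked spleen T cells the levels were lower and the separation of I-A wider. H2-Aa stood at 22.2 and 50.2 in the KO mice and at 10.8, 10.0 and 2.54 in the WT mice, which gave 2.32 ± 0.59 on the log2 scale (SE, edgeR adjusted p = 0.134). H2-Ab1 stood at 9.60 and 19.5 against 4.29, 6.52 and 1.40, a change of 1.97 ± 0.60 (edgeR adjusted p = 0.179). H2-Eb1 did not separate the genotypes there, at 22.6 and 42.0 against 22.9, 45.4 and 22.6, a change of 0.17 ± 0.40. None of the 4 genes passed in unmarked T cells, where 0.347% of 11526 genes were called and 20.1% had both KO mice above all WT mice.

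**Figure D2:**
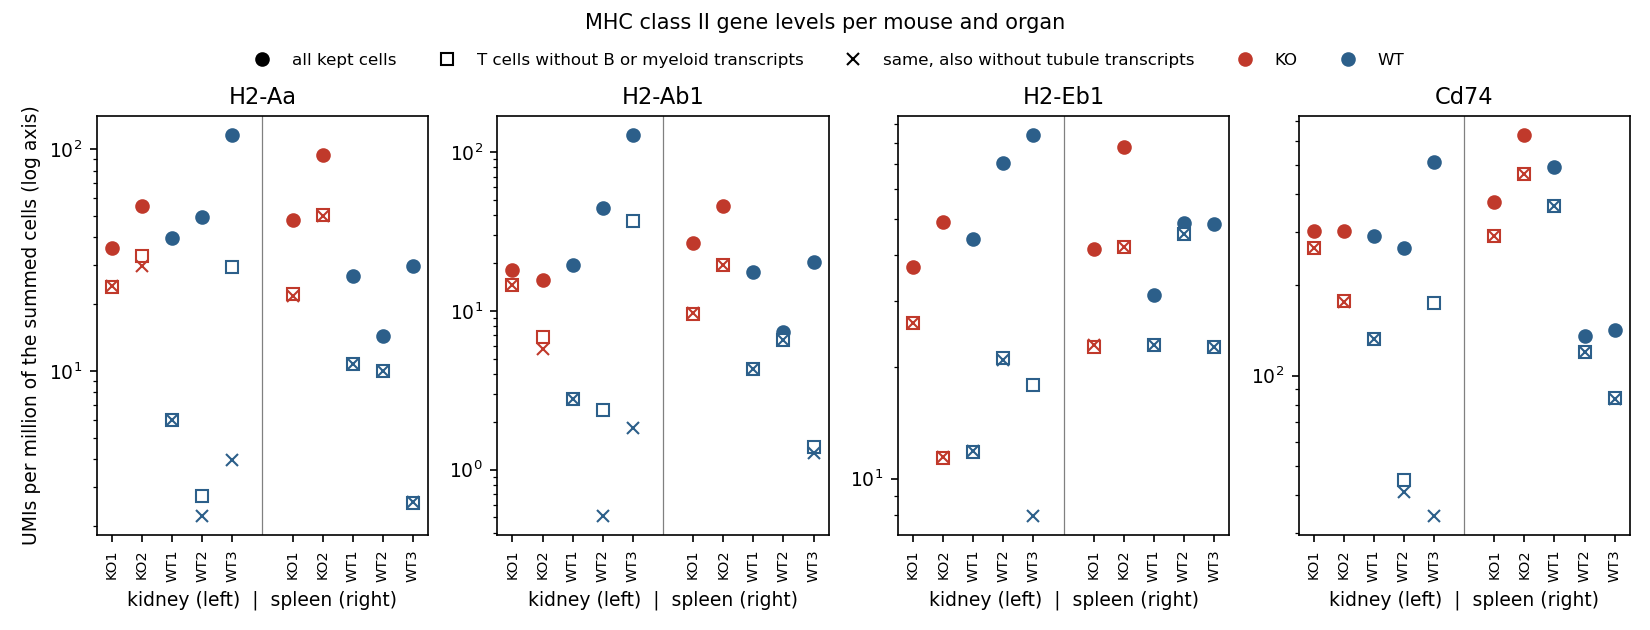
Level of H2-Aa, H2-Ab1, H2-Eb1 and Cd74 in each mouse, in CPM of the summed cells on a log axis, with kidney left and spleen right of the grey line in each panel. Filled circles are all kept cells, open squares unmarked T cells and crosses unmarked T cells that also lack kidney tubule transcripts, with KO in red and WT in blue. In spleen both KO mice lie above all WT mice for H2-Aa and H2-Ab1 in every cell set shown, and in kidney this order appears for those genes only in the crosses.

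Kidney gave a different order of the mice, and it changed with the cells that were summed. Over all kept kidney cells H2-Aa stood at 36.0 and 55.6 CPM in KO1 and KO2 and at 39.8, 49.7 and 115 in WT1, WT2 and WT3. H2-Ab1 stood at 18.0 and 15.6 in the KO mice and 19.5, 44.4 and 127 in the WT mice, both KO mice below every WT mouse, as for 15% of the 10486 genes tested. H2-Eb1 stood at 37.0 and 48.9 against 44.1, 70.5 and 83.8, and Cd74 at 302 and 302 against 290, 265 and 514. WT3 was the highest mouse for all 4 genes. No gene was called in kidney (0% of 10486 by edgeR's quasi-likelihood test at an adjusted p of 0.05, 966 at an unadjusted p under 0.05, and 58 by DESeq2), and the 4 members had log2 fold changes of -0.54 ± 0.49 (H2-Aa), -1.79 ± 0.82 (H2-Ab1), -0.58 ± 0.28 (H2-Eb1) and -0.17 ± 0.28 (Cd74). Without WT1, where 739 genes were called, H2-Eb1 passed as lower in KO (-0.80, edgeR adjusted p = 0.0464).

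Kidney WT3 also held the most tubule RNA. Transcripts of 8 kidney tubule genes, among them Miox, Umod and Slc34a1, summed to 539 CPM there against 0.346 to 28.0 in the other 4 mice. The same list still summed to 223 in unmarked T cells of WT3 against 0.364 to 4.25. Spleen cells held such transcripts too. Over all kept spleen cells the list summed to 29.9 CPM in KO1 and to 0 to 3.07 in the other 4 mice. In unmarked kidney T cells, where 1 of 10309 genes was called (0.0097%) and none was a member, H2-Aa stood at 24.0 and 33.0 in the KO mice and 5.99, 2.72 and 29.5 in the WT mice, and H2-Ab1 at 14.6 and 6.83 against 2.77, 2.38 and 36.6. Only Cd74, at 266 and 177 against 132, 45.2 and 174, had both KO mice above all WT mice there, as did 15.1% of genes. When cells with a tubule transcript were left out as well, a step added after the data were seen, WT3 stood at 3.97 for H2-Aa, 1.83 for H2-Ab1 and 34.2 for Cd74. Both KO mice then lay above all WT mice for H2-Aa, H2-Ab1 and Cd74 but not for H2-Eb1, as did 14.9% of 10267 genes. The log2 fold changes became 2.73 ± 0.42 (SE) for H2-Aa (edgeR adjusted p = 0.247), 2.71 ± 0.69 for H2-Ab1 (0.416), 1.71 ± 0.58 for Cd74 (0.476) and 0.63 ± 0.46 for H2-Eb1 (0.665), the opposite sign to all kept cells for each.

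The share of cells that held a class II gene separated I-A from I-E in the same way in both organs, and it depends little on rare droplets with many UMIs. Among unmarked kidney T cells, H2-Aa was found in 3.34% and 6.60% of cells of KO1 and KO2 and in 1.52%, 0.838% and 1.40% of cells of WT1, WT2 and WT3. In spleen it was found in 4.01% and 7.59% against 2.17%, 1.76% and 0.617%. H2-Ab1 was found in 2.91% and 2.36% of kidney T cells of the KO mice against 1.02%, 0.279% and 0.752%, and in 2.83% and 4.30% of spleen T cells against 1.04%, 1.32% and 0.522%. Both KO mice lay above all WT mice for these genes in each organ, an order that the share of cells with a UMI showed for 12.7% of the genes tested in kidney T cells and 13% in spleen T cells. H2-Eb1 was found in 3.49% and 3.77% of kidney T cells against 3.17%, 6.63% and 2.47%, and in 4.09% and 7.46% of spleen T cells against 4.94%, 11.9% and 6.27%, with the genotypes overlapping in both organs.

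**Figure D3:**
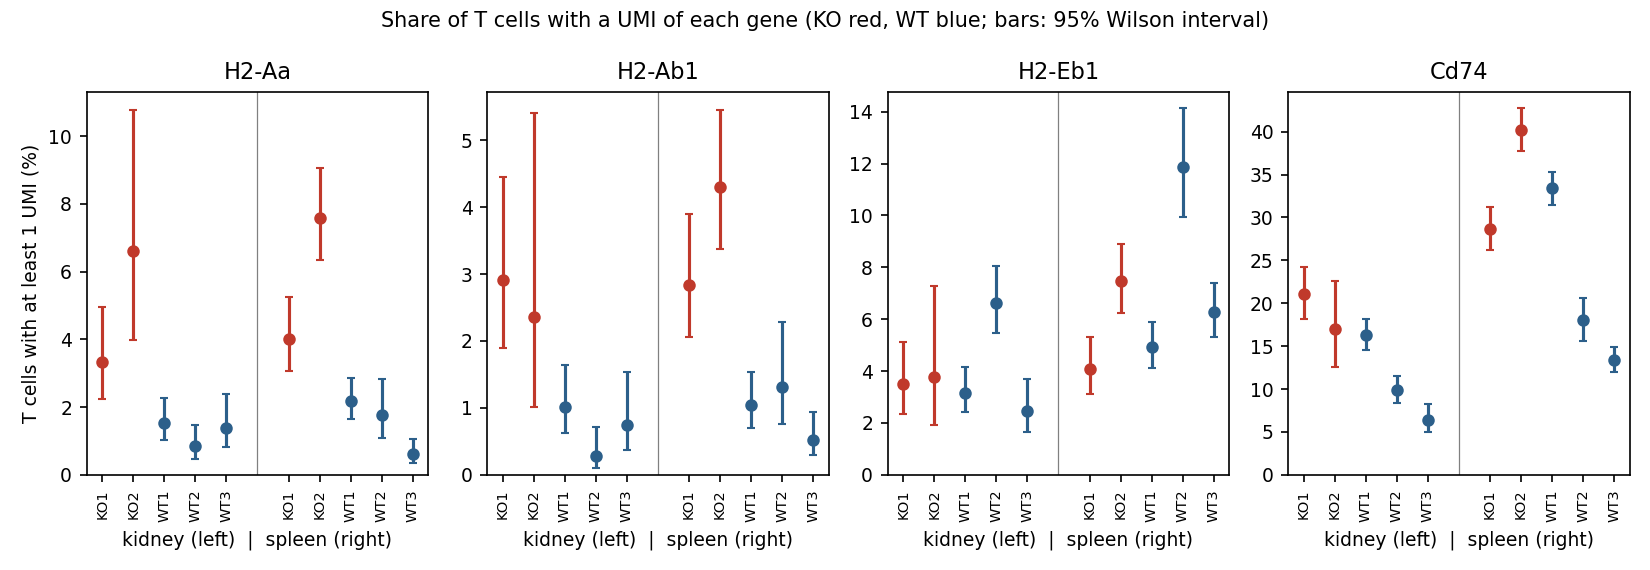
Percent of unmarked T cells with at least 1 UMI of H2-Aa, H2-Ab1, H2-Eb1 or Cd74 in each mouse, with kidney left and spleen right of the grey line, KO in red and WT in blue, and 95% Wilson intervals that cover counting error only. The KO points for H2-Aa and H2-Ab1 lie above all WT points in both organs, and those for H2-Eb1 do not.

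Over all kept cells the mean share with H2-Aa was 5.40% ± 2.70 (SD, n = 2) in KO against 1.92% ± 0.64 (n = 3) in WT kidney and 6.60% ± 2.93 against 1.83% ± 0.90 in spleen. H2-Ab1 was found in 2.97% ± 0.33 against 1.31% ± 0.58 in kidney and in 4.09% ± 1.19 against 1.17% ± 0.37 in spleen. Of all genes, 12.4% in kidney and 13.1% in spleen had both KO shares above all WT shares. Each of these 4 differences had p = 0.1 by the exact two-sided permutation test over mice, the smallest value that 2 against 3 mice allow, and 0.24 after adjustment over 12 shares. H2-Eb1 was found in 4.08% against 4.76% in kidney and 6.70% against 7.90% in spleen (exact permutation p = 0.8 in each organ). Thinned to 2000 UMIs per cell, the KO and WT means for H2-Aa were 3.60% and 1.51% in kidney and 4.54% and 1.21% in spleen, with the same order of mice. The combined share of cells with any of the 3 genes was 8.14% in KO and 6.07% in WT kidney (exact permutation p = 0.4) and 12% and 9.43% in spleen (exact permutation p = 0.5). No cell type that lacks class II genes was sorted, so the share that free RNA alone would give was not measured.

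The mice also differed in which class II genes a T cell held. In the unmarked spleen T cells of KO1 and KO2, H2-Eb1 made up 41.5% and 37.6% of the UMIs of the 3 H2 genes, against 60.3%, 73.3% and 85.2% in WT1, WT2 and WT3. In kidney it made up 40.4% and 22.2% in the KO mice and 57.5%, 80.5% and 21.3% in the WT mice. Kidney cells with 10 or more of these UMIs, of which WT3 had 2, were then left out of every mouse. The values became 36.6% and 22.2% in the KO mice and 58.9%, 88.4% and 57.8% in the WT mice. Cells with H2-Eb1 and neither I-A gene made up 2.68% and 4.43% of spleen T cells in the KO mice and 4.03%, 11.2% and 6.08% in the WT mice. Cells with an I-A gene and no H2-Eb1 made up 4.33% and 6.11% against 1.78%, 1.87% and 0.807%. These ratios were chosen for description after the values were seen and were not tested. In myeloid-marked spleen cells H2-Eb1 made up 25.5%, 31.0%, 10.4%, 38.2% and 36.3% of these UMIs in KO1, KO2, WT1, WT2 and WT3, in each mouse a smaller part than in its T cells. In myeloid-marked kidney cells of these mice it made up 100% (2 UMIs), 54.8%, 39.6%, 37.4% and 45.5%. This was a larger part than in T cells for KO1, KO2 and WT3. B cell-marked spleen cells of KO1, KO2, WT1 and WT2 had 48.8%, 35.9%, 26.8% and 75.0%, a larger part than T cells for KO1 and WT2.

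**Figure D4:**
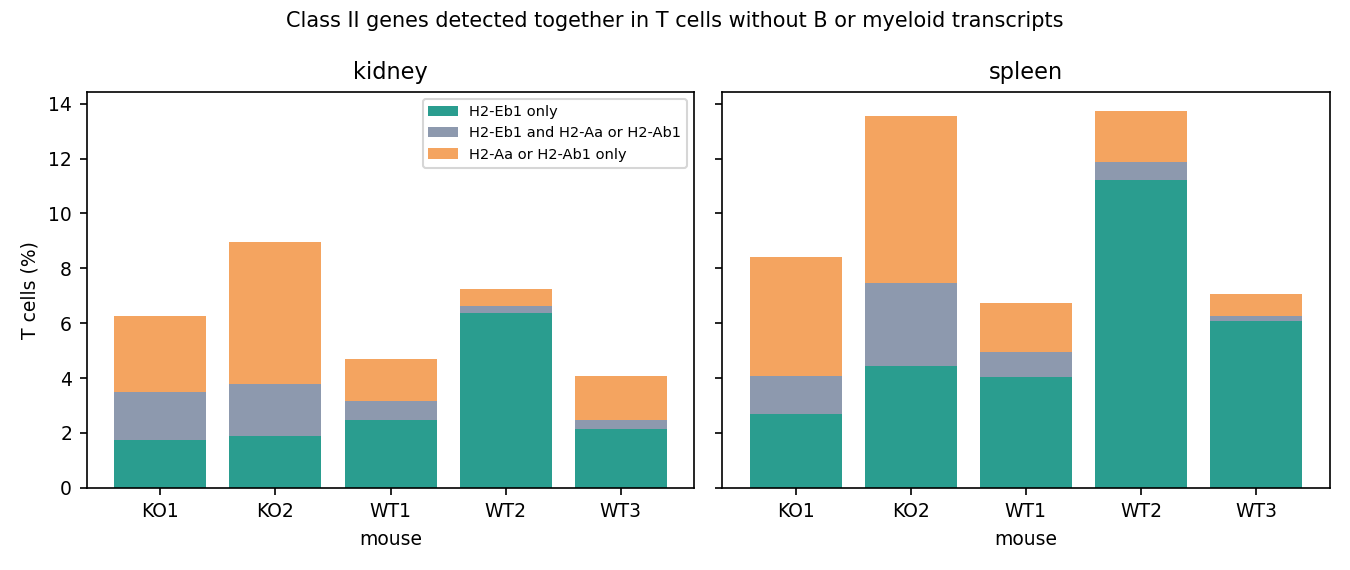
Percent of unmarked T cells (vertical axis) of each mouse with H2-Eb1 only, with H2-Eb1 together with H2-Aa or H2-Ab1, and with H2-Aa or H2-Ab1 only, kidney left and spleen right. H2-Eb1-only cells make up 11.2% of spleen T cells in WT2, while I-A-only cells make up 6.11% in KO2.

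Cd74, the invariant chain, was the most abundant of the 5 genes by CPM in every mouse and organ. Counts of 5′ ends need no correction for length in such a comparison. It also depends on how well reads of the H2 genes matched the reference, which was not tested. Cd74 was found in 28.6% and 40.2% of unmarked spleen T cells of KO1 and KO2 and in 33.4%, 18.0% and 13.3% of those of WT1, WT2 and WT3. In kidney it was found in 21.1% and 17.0% against 16.3%, 9.85% and 6.44%. WT1 stood with the KO mice in spleen, and WT2 and WT3 were the lowest in both organs. Over all kept cells the mean share was 35.3% in KO and 21.9% in WT spleen and 19.4% and 11.5% in kidney (exact permutation p = 0.3 in each organ).

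Ciita, the transactivator, was at the edge of detection. All kept kidney cells held 5 Ciita UMIs, 4 of them in the cells with 10 or more class II UMIs, and spleen cells held 26, of which 12 lay in such cells. Among unmarked T cells it was found in 1 of 4838 kidney and 13 of 8082 spleen cells, and 4 of those 13 spleen cells also held a class II UMI. Counts in the unmarked T cells of KO1, KO2, WT1, WT2 and WT3 were 0, 0, 0, 1 and 0 in kidney and 3, 3, 5, 1 and 1 in spleen. Over all kept spleen cells the counts were 4, 9, 6, 2 and 5, a mean of 0.373% of KO and 0.187% of WT cells (exact permutation p = 0.1). Ciita did not pass the filter on low counts for the comparison of genotypes, and counts this low cannot show a difference at this depth.

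The difference of the genotype effect between organs was negative for all 4 genes over all kept cells, and no gene of 12072 (0%) was called for it by edgeR's quasi-likelihood test, with 487 at an unadjusted p under 0.05 and 6 called by DESeq2. It was -2.18 ± 0.70 (SE) on the log2 scale for H2-Aa, -3.10 ± 1.01 for H2-Ab1, -1.12 ± 0.49 for H2-Eb1 and -1.23 ± 0.73 for Cd74. With mouse as a block, 4 genes were called and H2-Aa had -2.0 ± 0.34 (edgeR adjusted p = 0.0911). In unmarked T cells without tubule transcripts the 4 values were 0.41, 0.73, 0.45 and 0.61, all above 0 and none called.

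None of the 4 class II genes passed between kidney and spleen cells of the same mice, in a comparison where 22.9% of 11628 genes were called. Over all kept cells the kidney minus spleen log2 change was 0.82 ± 0.48 (SE, edgeR adjusted p = 0.241) for H2-Aa, 1.09 ± 0.69 (0.279) for H2-Ab1, 0.34 ± 0.28 (0.413) for H2-Eb1 and 0.15 ± 0.39 (0.822) for Cd74. With mouse as a block 3715 genes were called in place of 2665, and still none of the 4. In unmarked T cells the changes were 0.36, 1.07, -0.61 and -0.56, and without tubule transcripts -0.53, -0.64, -0.79 and -0.98, none of them called, where 23.3% of 11427 genes were called in unmarked T cells. The shares of positive cells were lower in kidney for H2-Eb1 and Cd74 in every mouse, without passing the test. The part of all genes whose shares had this order was not counted. Over all kept cells H2-Eb1 was found in 4.49% ± 1.57 (SD, n = 5) of kidney and 7.42% ± 3.15 of spleen cells, lower in kidney in 5 of 5 mice (exact permutation p = 0.062, the smallest that 5 mice allow, and 0.125 adjusted over 6 shares). Cd74 was found in 14.7% of kidney and 27.3% of spleen cells, also lower in 5 of 5 mice with the same p. H2-Aa, at 3.31% and 3.74%, and H2-Ab1, at 1.97% and 2.34%, had exact permutation p = 0.375 and 0.5625. Over 10 sums of all kept cells H2-Aa and H2-Ab1 had a Pearson r of 0.88 and H2-Aa and H2-Eb1 of 0.72. In unmarked T cells these were 0.87 and 0.11. The sums share mice and library depth, and the coefficients are descriptions.

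T cell state also differed between the mice. Among unmarked T cells, those with a UMI of Gzmb, Gzmk or Eomes, genes of cytotoxic cells, made up 20.1% and 31.1% of kidney cells in KO1 and KO2 and 34.3%, 93.2% and 86.9% in WT1, WT2 and WT3. In spleen they made up 12.8% and 19.6% against 47.1%, 94.2% and 89.3%. In these cells of WT1, WT2 and WT3 spleen H2-Eb1 stood at 13.5, 45.5 and 23.3 CPM and H2-Aa at 3.76, 1.31 and 1.85. In the KO mice the same cells held 43.8 and 36.0 of H2-Eb1, overlapping the WT mice, and 10.0 and 27.2 of H2-Aa, above them. These H2-Aa levels rest on 8 and 34 UMIs in KO1 and KO2 and 19, 5 and 13 in WT1, WT2 and WT3. The part of all genes with this order in cytotoxic cells was not counted. Cells with at least 2 UMI-positive genes of a naive T cell list that includes Lef1, Ccr7 and Igfbp4 held H2-Aa at 29.8 and 61.8 in KO1 and KO2 spleen and at 11.0, 67.2 and 3.65 in the WT mice, overlapping between genotypes. How much of the order of the mice follows the mix of states was not tested.

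Regulatory T cells, marked by Foxp3, held more Cd74 than the cytotoxic and naive cells of the same mice, as a description over groups that overlap. In spleen, Cd74 in Foxp3-positive T cells stood at 946, 843, 1006 and 714 CPM in KO1, KO2, WT1 and WT3, against 266, 389, 164 and 60.5 in cytotoxic cells of the same mice. In kidney, where only KO1 and WT1 had at least 30 such cells, it stood at 945 and 614 against 160 and 103. Thinned to 2000 UMIs, Cd74 was found in 61.1%, 62.0%, 70.6% and 53.2% of the spleen Foxp3-positive cells of those 4 mice. H2-Eb1 in them was 97.8, 91.6, 46.3 and 62.7 CPM, above the level in cytotoxic cells in each mouse, and H2-Aa was 37.7, 35.0, 17.1 and 3.49.

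Class II-positive cells were then compared with class II-negative cells of the same mouse, with mouse as a block. The 3 H2 genes chose the cells and were not tested. In spleen 257 of 10717 genes (2.4%), these 3 among them, passed edgeR's quasi-likelihood test at an adjusted p of 0.05. Cd74 rose by a log2 fold change of 3.11 ± 0.12 (SE, edgeR adjusted p = 1.2e-09). Ciita stood at 1.61, 6.14, 1.94, 2.57 and 7.33 CPM in the positive cells of KO1, KO2, WT1, WT2 and WT3 and at 0.644, 0.390, 0.441, 0 and 0 in the negative cells. These are few UMIs, and the edgeR call on Ciita (3.53 ± 0.86, adjusted p = 0.048) was lost without KO1, without WT1 and without WT2. Without KO2 or without WT3, Ciita did not pass the filter on low counts and was not tested. Its values are therefore given as a description. Of 9 partner and loading genes tested, 7 passed upward. H2-DMa, H2-DMb1 and H2-DMb2, chains of the H2-DM complex that loads peptide, rose by 1.13, 3.89 and 4.27, H2-Ob, a chain of the H2-DO regulator of H2-DM, by 4.93, and Ifi30, a reductase that prepares antigens, by 3.01. The leading rises were Ighv1-14, Igkv10-96, Ighv1-53 and Iglc3 of antibody chains, Blnk of B cell receptor signalling, Siglech of plasmacytoid dendritic cells, Rnase6, Pld4, Rab30 and Prr5, with log2 fold changes of 6.70 to 11.3. Some rested on 1 or 2 mice. Igkv10-96 stood at 9293 CPM in the positive cells of WT1 and 0 in those of the other 4 mice, Ighv1-14 at 5677 in WT1 and at most 6.14 elsewhere, and Siglech at 33.8 and 8.77 in KO1 and KO2 and 0 in the WT mice. Rnase6 and Pld4 were higher in positive cells of 5 of 5 mice. The leading falls were the neutrophil genes S100a8, S100a9, Lcn2, Ngp and Retnlg (-6.08 to -7.77), whose levels in negative cells came from KO2, WT1 and WT3, with S100a8 at 52.4, 180 and 124 CPM there and 0 in KO1 and WT2. In kidney 89 of 8124 genes (1.1%) passed, again with the 3 H2 genes. Cd74 rose by 5.22 ± 0.49 (SE) and 3 of 6 partner genes rose, H2-DMb2, Ifi30 and Ctss. The leading rises there were the antibody gene Igkv17-127 and tubule genes including Miox, Fbp1, Slc34a1 and G6pc. Igkv17-127 stood at 12988 CPM in the positive cells of WT1, 262 in KO1 and 0 in the other 3 mice. Fbp1, Slc34a1 and G6pc were at 0 in both KO mice and highest in WT3, as was Miox at 4681. The falls were Tbx21 and Fasl, genes of effector T cells, and Gpr183 (-0.82 to -0.89 for the 3), each lower in positive cells of 5 of 5 mice.

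The comparison was then restricted to unmarked T cells, which leaves out cells with a defining B cell or myeloid transcript but not all RNA of those lineages. In unmarked spleen T cells the 14 B cell genes still summed to 220 to 372 CPM over the 5 mice, with 5 to 8 of them at a UMI or more. The 19 myeloid genes summed to 125 to 190 CPM, with 8 or 9. Scaled by edgeR's TMM factors, Igkc stood at 107, 161, 104, 338 and 296 CPM in KO1, KO2, WT1, WT2 and WT3. Ighm, the IgM heavy chain gene, had another order in the unmarked spleen T cells, at 109, 158, 143, 10.9 and 18.8. In these cells 79 of 10443 genes (0.756%) passed, the 3 H2 genes included, 46 upward and 33 downward. Cd74 in the positive cells of KO1, KO2, WT1, WT2 and WT3 stood at 1186, 1607, 1096, 348 and 235 CPM, against 185, 253, 295, 69.4 and 70.2 in the negative cells. It was higher in positive cells of 5 of 5 mice, with a log2 fold change of 2.26 ± 0.12 (SE, edgeR adjusted p = 3.03e-08). H2-DMa stood at 76.0, 72.5, 58.0, 20.9 and 22.7 against 30.8, 35.9, 32.2, 15.3 and 13.6, and rose by 0.91 ± 0.15 (edgeR adjusted p = 0.00815). It was the only gene of the 6 partner genes tested that passed. H2-DMb2, at 2.27 ± 0.56, had an adjusted p of 0.0799 in the same edgeR fit. Ifng, the interferon that induces class II in many cells, had -0.57 ± 0.19 (edgeR adjusted p = 0.219). None of 14 class I genes and none of 7 factors that bind class II promoters, Rfx5 among them, passed in either direction.

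**Figure D5:**
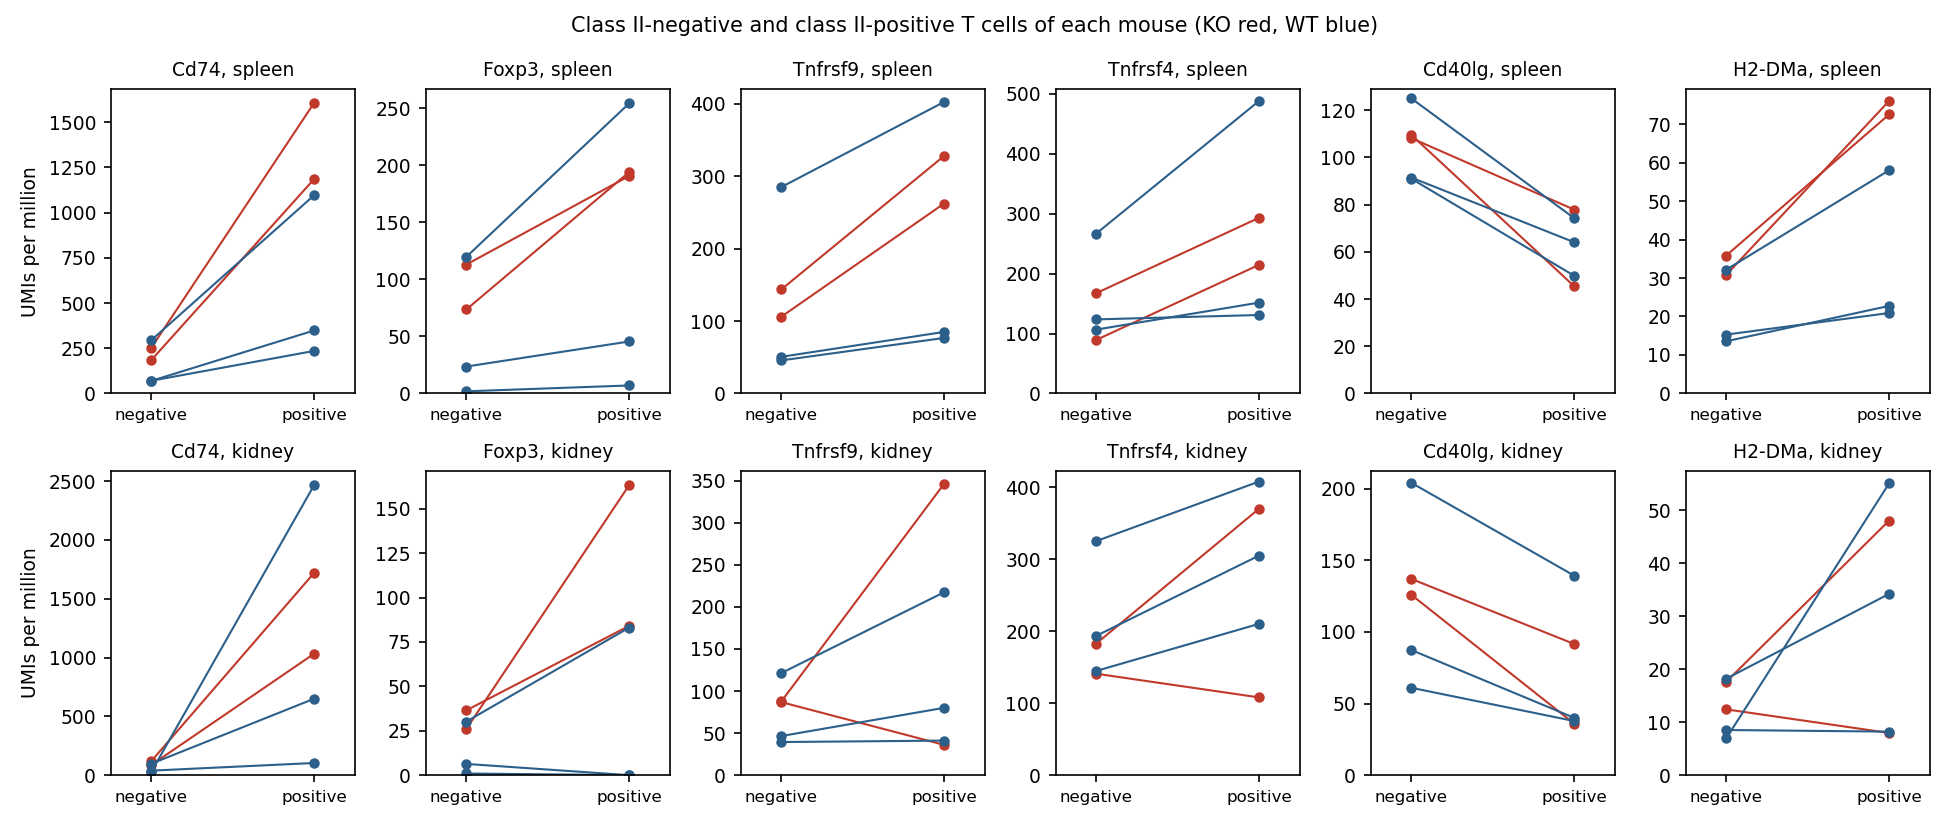
CPM of Cd74, Foxp3, Tnfrsf9, Tnfrsf4, Cd40lg and H2-DMa in class II-negative and class II-positive unmarked T cells, a line per mouse, spleen in the upper and kidney in the lower row, KO red and WT blue. In spleen all 5 lines rise for each gene but Cd40lg, for which all 5 fall.

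Foxp3, the defining factor of regulatory T cells, and 2 of 10 activation genes were higher in the positive spleen T cells, and 1 activation gene was lower. Foxp3 stood at 194, 190, 254, 6.97 and 45.5 CPM in positive and 73.5, 113, 120, 1.84 and 23.5 in negative cells of the 5 mice, and rose by 1.04 ± 0.12 (SE, edgeR adjusted p = 0.000319). WT2 had almost no Foxp3 in either. Of 10 activation genes, Tnfrsf9 (4-1BB) rose by 0.89 ± 0.12 (edgeR adjusted p = 0.00131) and Tnfrsf4 (OX40) by 0.71 ± 0.12 (edgeR adjusted p = 0.0124), each in 5 of 5 mice. Among all kept cells the call of Tnfrsf4 was lost when KO1, KO2 or WT1 was left out. Cd40lg, through which helper T cells signal to B cells, fell by 0.80 on the log2 scale, with 77.9, 45.5, 49.9, 64.1 and 74.3 in positive against 108, 110, 91.0, 91.5 and 125 in negative cells (edgeR adjusted p = 0.00539). The remaining 7 activation genes, Il2ra (0.71 ± 0.21, adjusted p = 0.154 in the same edgeR fit) and Cd44 among them, did not pass. The leading rises were Gm20513, Kynu, Pdzk1ip1, Serpine2, Zc3h12c, Gm4858, Eno3, Ccr8, Hdac9 and Penk, with log2 fold changes of 1.16 to 3.29. Ccr8 is a chemokine receptor of regulatory and Th2 cells and Penk encodes a precursor of enkephalins. The leading falls were Ccl1, a ligand of Ccr8, at -5.46, Ret, Spp1 (osteopontin), Gm2663 and Cacna1d. Positive T cells were deeper than negative ones, at a median of 3844.5 against 3326 UMIs, and held Igkc in 37.4% against 27.2% of cells, and the part of either in these differences was not tested.

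In unmarked kidney T cells 6 of 7799 genes (0.0769%) passed, all upward and 3 of them the H2 genes. Cd74 was another, at 3.55 ± 0.48 (SE, edgeR adjusted p = 0.00256), with levels of 1720, 1033, 650, 104 and 2467 CPM in positive and 120, 86.8, 97.4, 38.4 and 28.8 in negative cells. The tubule gene Miox also passed. Foxp3 had 1.58 ± 0.37 (edgeR adjusted p = 0.246), with 163, 84.1, 83.1, 0 and 0 in positive and 26.0, 36.5, 30.2, 0.947 and 6.33 in negative cells, and Cd40lg had -0.79 ± 0.18 (edgeR adjusted p = 0.191), lower in positive cells of 5 of 5 mice. The kidney and spleen comparisons were not tested against each other.

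Other genes of the class II pathway were read beside the members for KO against WT. In spleen, none of 6 tested partner and loading genes passed, and all 6 had a log2 fold change above 0, with a median of 0.76 (5 of 6 and 0.78 in unmarked T cells). H2-DMa had 0.88 ± 0.36, H2-Oa 0.62 ± 0.15 and H2-DMb2 1.54 ± 0.74 (SE, edgeR adjusted p = 0.299, 0.139 and 0.359). None of 7 promoter factors passed, with a median of -0.04, and none of 8 interferon induction genes, of which 4 were above 0, with a median of 0.005. Members of that list lay far from 0 on both sides. Ifngr2, a chain of the interferon gamma receptor, stood at 55.5 and 51.7 CPM, here scaled by edgeR's TMM factors, in the KO mice and 8.04, 0.467 and 2.56 in the WT mice, a difference of 3.70 ± 0.70 (SE, edgeR adjusted p = 0.101), and Ifngr1, the other chain, had 0.62 ± 0.12 (edgeR adjusted p = 0.104). Ifng itself had -2.33 ± 0.54 (edgeR adjusted p = 0.127) and Socs1 0.67 ± 0.24 (edgeR adjusted p = 0.254). None of 14 class I genes passed, and 0 of 14 had a value above 0, with a median of -0.30, Tap1 at -0.50 ± 0.14 and B2m at -0.26 ± 0.14. In kidney none of these lists had a called gene for KO against WT. Between the organs, where 22.9% of all genes passed, 1 of 6 partner genes was lower in kidney, 1 of 7 promoter factors was higher and 1 lower, 3 of 8 induction genes were higher and 1 lower, and 4 of 14 class I genes were higher and 1 lower. Ifngr1 stood at 765 to 974 TMM-scaled CPM in the 5 kidneys and 128 to 221 in the 5 spleens, a rise of 2.44 ± 0.10 (SE, edgeR adjusted p = 1.01e-06), with Jak2 at 0.98 ± 0.14 and Irf1 at -0.63 ± 0.15 (edgeR adjusted p = 0.00123 and 0.0129). H2-Oa (-0.69 ± 0.16) and Rfx5 (-0.77 ± 0.16) were lower in kidney, while H2-K1 (0.37 ± 0.08) and H2-D1 (0.55 ± 0.12), the classical class I heavy chains, were higher (SE, edgeR adjusted p = 0.0109, 0.00874, 0.0123 and 0.00879).

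Genes whose level followed the summed H2-Aa, H2-Ab1, H2-Eb1 and Cd74 most closely were taken by Pearson r of log2(CPM + 1) over the 10 sums. Over all kept cells they were Arhgap24 (r = 0.911), Stx7, Lamp1, Sugct, Tns1, Gatad2b, Cryzl2, Atxn2, Dpp7 and Pink1 (0.857). In unmarked T cells they were Iigp1 (r = 0.922), Ctsf, Ighm (0.894), Tcf12, Cul7, Zc3h12c, Slc39a3, Ntrk3, Nuak2 and Npas2 (0.876). Iigp1 encodes an interferon-inducible GTPase, and Ighm, on the B cell marker list, the IgM heavy chain. No gene stands in both sets of 10. The sums share mice, organs and depth, and several of these genes had fewer than 10 CPM in every sum, so the order is a description.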

How the data were processed

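The deposited matrices hold raw UMI counts of genes and antibody tags, made by the authors with Cell Ranger 7.1.0 per the file headers. The submitters' processing notes also name Seurat 5.0.1 and the builds GRCm38 and mm10, and no normalization is in the counts. The deposited key and feature annotation give mouse, organ and genotype per tag. Tag numbers of the matrices were joined to tag sequences of the key from the maker's numbering and the order in which the key lists them, so each genotype rests on that join, beside which Ezh2 is given. Of 13368 cells in the 10 first-day blocks, 13 led by another tag were left out, and 13337 were kept. Doublets were not called, and cells with transcripts of another lineage were instead left out of the unmarked T cells.

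UMIs were summed per mouse and organ and compared in R 4.3.3 by edgeR 4.0.16 (TMM scaling, filterByExpr, quasi-likelihood test, Benjamini-Hochberg over all genes at 0.05), with DESeq2 1.42.0 as an alternative. Shares of cells were tested by exact two-sided permutation over mice (SciPy 1.17.1), adjusted over the 5 members and their combined share in 2 organs for genotype (12 values) and over 6 values for organ. The replicates are separate mice. Kidney and spleen of a mouse come from the same animal. Deviations from the group means correlated between its organs at 0.0158 for KO1 and KO2, 0.631 for WT1, 0.591 for WT2 and 0.266 for WT3 over 12072 genes. The deviations of 2 mice mirror each other, so KO1 and KO2 share 1 value by construction. The kidney of each WT mouse correlated best with its own spleen, and that of neither KO mouse did. Wilson intervals at 95% cover counting error only. Scripts were tested on simulated counts with known changes.

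Genes were named as follows: the members, the genes of fixed lists by counts with up to 4 examples each, the 10 most correlated genes, and the 10 largest rises and 5 largest falls between positive and negative cells. Further listed genes with values, and Foxp3, were chosen after their values were seen. Some genes of these lists are not reported here. Members and lists were chosen with earlier results of these data known.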

Additional observations from a re-analysis of the deposited data

Results flagged for a closer look

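Over all kept kidney cells, WT3 stood far above the other 4 mice for H2-Aa at 115 CPM, for H2-Ab1 at 127 CPM and for Cd74 at 514 CPM. The highest and the lowest mouse of 20 sets of 5 mice were tested, 40 tests in all. Only these 3 had a gap to the nearest mouse, over the whole range, above 0.71. Chance gives about 1 such gap in 20 sets when both ends are read. The 3 come from the same mouse and are not independent. Kidney tubule transcripts were also highest in WT3, and their part in these levels was not tested.

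The genotype effect differed between organs in direction over all kept cells, by -2.18 on the log2 scale for H2-Aa, -3.10 for H2-Ab1 and -1.12 for H2-Eb1. Both KO mice were lower in kidney than in spleen and all 3 WT mice higher for each gene, and none of these differences passed adjustment over all genes with edgeR. The part of all genes that split the mice in this way was not counted. In unmarked T cells, with or without tubule transcripts, none of the 3 genes split them so. In unmarked T cells without tubule transcripts the differences were 0.41, 0.73 and 0.45.

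Cells of the second sorting day could not be tied to mice and entered no comparison. The 8 second-day blocks held 17523 entries of 2399 distinct barcodes, the same barcodes in both organs. A class II UMI was found in 236 of these 2399 cells, or 9.84% (95% Wilson interval 8.71% to 11.1%), where a count of 0 would allow a share of up to 0.125%.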

How the results depend on the processing

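The number of genes called moved most. KO against WT in spleen gave 697 genes with DESeq2, 340 without the filter on low counts and 0 to 2254 when a mouse was left out, the highest without WT1. In kidney it gave 58 with DESeq2, 26 without the filter, 1 in unmarked T cells and 1 without tubule transcripts, and 0 to 739 without a mouse, the highest without WT1. The difference between organs gave 6 with DESeq2, 4 with the replicate block and 0 to 1 without a mouse, and kidney against spleen 1484 to 2712. Positive against negative spleen cells gave 79 genes in unmarked T cells, 8 with no replicate block and 111 to 281 without a mouse, and kidney cells 6, 8 and 35 to 109, with 200 at a minimum of 2 UMIs. The replicate block changed no call of a member in the comparison of organs.

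The sign of several values turned, and the causes were not tested beyond the cells left out. For KO against WT in kidney, unmarked T cells gave 1.30 for H2-Aa, 0.35 for H2-Eb1 and 1.00 for Cd74. Without tubule transcripts the values were 2.73, 0.63 and 1.71, with 2.71 for H2-Ab1. Cd74 had 0.21 without B cell-marked cells, and leaving out a mouse gave -0.84 to 0.031 for H2-Aa and -0.35 to 0.16 for Cd74. The difference between organs was 0.41 (H2-Aa), 0.73 (H2-Ab1), 0.45 (H2-Eb1, 0.15 in unmarked T cells) and 0.61 (Cd74) without tubule transcripts. For kidney against spleen, those cells gave -0.53, -0.64, -0.79 and -0.98, unmarked T cells gave -0.61 for H2-Eb1 and -0.56 for Cd74, and H2-Eb1 had -0.037 without B cell-marked cells. Cd74 ranged from -0.27 to 0.50 without a mouse, and had -0.03 without WT2. In positive kidney cells at a minimum of 2 UMIs, Tnfrsf4 had -0.20.

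For shares in percentage points, leaving out a mouse gave -0.36 to 5.57 for the combined share and -3.30 to 0.97 for H2-Eb1 in spleen (0.89 without KO1), -1.59 to 0.51 for H2-Eb1 in kidney, and -0.59 to 0.10 for H2-Ab1 between organs. At a minimum of 2 UMIs H2-Eb1 in spleen was 0.29 and H2-Ab1 between organs 0.022. Of 542 values recomputed, 463 kept their direction and side of the threshold, or for counts stayed within 1.5 times. With 2 KO mice, a difference of shares cannot pass 0.05.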

Other observations

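In the kidney of WT3, unmarked T cells with none of the naive, regulatory, cytotoxic or cycling genes stood at 260 CPM of H2-Aa and 1416 CPM of Cd74, in 95 cells, of which 8.42% were class II-positive. Of all unmarked T cells of that kidney, 2 cells held 10 or more UMIs of the 3 H2 genes, and the others held 45 together. Without cells holding tubule transcripts, the unmarked T cells of that kidney went from 29.5 to 3.97 CPM of H2-Aa and from 174 to 34.2 of Cd74. The cytotoxic T cells of that kidney stood at 2.77 and 29.8 CPM. In the spleen of KO2, naive T cells stood at 61.8 CPM of H2-Aa and cells with none of these genes at 54.7 CPM, above its regulatory cells at 35.0 CPM, while H2-Eb1 was highest in the regulatory cells at 91.6 CPM.

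Cd74 was found in fewer of the H2-Eb1-only spleen T cells of WT2 and WT3, at 33.3% and 23.4%, than of those of KO1, KO2 and WT1, at 76.5%, 83.3% and 72.0%. Among spleen T cells with H2-Aa or H2-Ab1 the share with Cd74 was 72.6%, 90.4%, 88.7%, 69.6% and 52.4% in KO1, KO2, WT1, WT2 and WT3. These shares were chosen after the values were seen and were not tested.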
